A study of Mus musculus with 2 samples.

Results

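Endothelial cells line the vessels of the testis, and at PD7 they made up a small share of the cells in the suspensions. They were chosen here by a rule on UMIs (unique molecular identifiers, each standing for 1 captured RNA molecule). A retained cell was a member when Flt1, Cldn5, Pecam1, Ptprb, Tie1 and Tek together gave at least 8 of every 10000 of its UMIs. It also had to stay under 10 for the pericyte genes Rgs5, Higd1b and Cox4i2, under 10 for the Sertoli genes Clu, Amhr2, Rhox8 and Cst9, and under 2 for the germ cell genes Ddx4 and Dazl. The rule found 58 members among 13789 retained cells, 24 of them control and 34 Brca1 vKO. The values of these genes are therefore a description of the choice and not a result.

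The study sequenced dissociated testes of 1 control mouse and 1 Brca1 vKO mouse on the 10x Genomics platform, both at PD7, to see what loss of BRCA1 does to the early germ line. Brca1 vKO stands for Brca1 f/- Vasa-Cre: 1 allele is deleted in every cell of the body, and the floxed allele is recombined where Vasa-Cre is active, which begins in fetal germ cells. The endothelial cells of this mouse are thus not the cells in which the second allele is removed. The genotype of the control beyond this name is not given in the sources used here. With 1 mouse per genotype no test between genotypes was possible, so differences between the libraries are a description of 2 libraries. The intervals given for some of them are 95% intervals that cover counting error only.

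The vessels of the testis run in the interstitium between the seminiferous tubules, where they bring hormones, oxygen and blood cells close to the tubule wall. Endothelial cells respond to VEGF and angiopoietins through the receptors FLT1, KDR, TIE1 and TEK, are held together by VE-cadherin and claudin-5, and lay down a basement membrane that they share with pericytes. Notch signalling and SOX17 are known for the arterial state, and apelin and its receptor for sprouting and capillary cells.

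In all, 120568700 UMIs were counted for control and 165062097 for Brca1 vKO, with 5077 and 8712 retained cells, and 21 barcode sequences occurred in both libraries. More cells had been loaded for the Brca1 vKO library. Cells over the germ cell ceiling numbered 970 for control and 267 for Brca1 vKO, or 19.1% and 3.06% of retained cells. Brca1 itself, the targeted gene, gave 7 UMIs in 2 control members and 20 UMIs in 7 Brca1 vKO members, or 10.3 and 19.9 UMIs per 1000000 UMIs (CPM). The ratio of Brca1 vKO over control was 1.93, with an interval from 0.783 to 5.40, so a difference in either direction was not detectable at this depth. These UMIs do not show whether an allele is deleted. Scrublet, a doublet caller, marked 161 and 249 retained cells, none of them a member.

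The members formed 0.473% of retained control cells (exact Clopper-Pearson interval 0.303% to 0.703%) and 0.390% of retained Brca1 vKO cells (0.270% to 0.545%). The ratio of the shares was 0.826, with an interval from 0.475 to 1.46. Because germ cells were scarcer in the Brca1 vKO library, the share was also taken over cells below the germ cell ceiling, of which there were 3967 and 8429. It was then 0.605% (0.388% to 0.899%) and 0.403% (0.280% to 0.563%), a ratio of 0.667 (0.384 to 1.18). Both intervals include equal shares. A further 4 control and 7 Brca1 vKO cells reached the endothelial minimum but passed a ceiling and were left out. Among these, 1 control cell passed the Sertoli ceiling and 3 the germ cell ceiling, while 2 Brca1 vKO cells passed the pericyte ceiling and 5 the Sertoli ceiling.

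Depth differed widely among the members. Control members had a median of 11674 UMIs, from 1806 to 118913, and Brca1 vKO members a median of 16431, from 1810 to 121613. The members' summed UMIs came to 679606 and 1007349, and the 3 deepest cells held 50.6% of the control sum and 29.1% of the Brca1 vKO sum. A CPM value of these sums is therefore weighted towards few cells, above all in the control library. Mitochondrial UMIs were low, with medians of 2.87% and 2.67%.

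The 6 rule genes together had a median of 32.4 UMIs per 10000 in the control members, with extremes of 10.1 and 101, and of 30.7 in the Brca1 vKO members, with extremes of 8.15 and 93.9. Pecam1, an adhesion molecule of endothelial junctions, had a UMI in 56 of 58 members and Cldn5 in 54. Flt1 was detected in 50, Ptprb in 49, and Tie1 and Tek in 43 each. The lowest control members lay at 10.1, 11.3 and 12.3, while the nearest cells left out lay at 5.70, 4.48 and 4.29. In the Brca1 vKO library the lowest members were at 8.150, 8.153 and 8.159 and the nearest cells left out at 5.85, 5.03 and 4.98. Among cells under all ceilings, 1 control and 2 Brca1 vKO cells lay from 5 to under 8, and 2 and 5 from 8 to under 12. The 3 lowest Brca1 vKO members and the lowest control member are the cells found below to have few other endothelial genes.

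**Figure D1:**
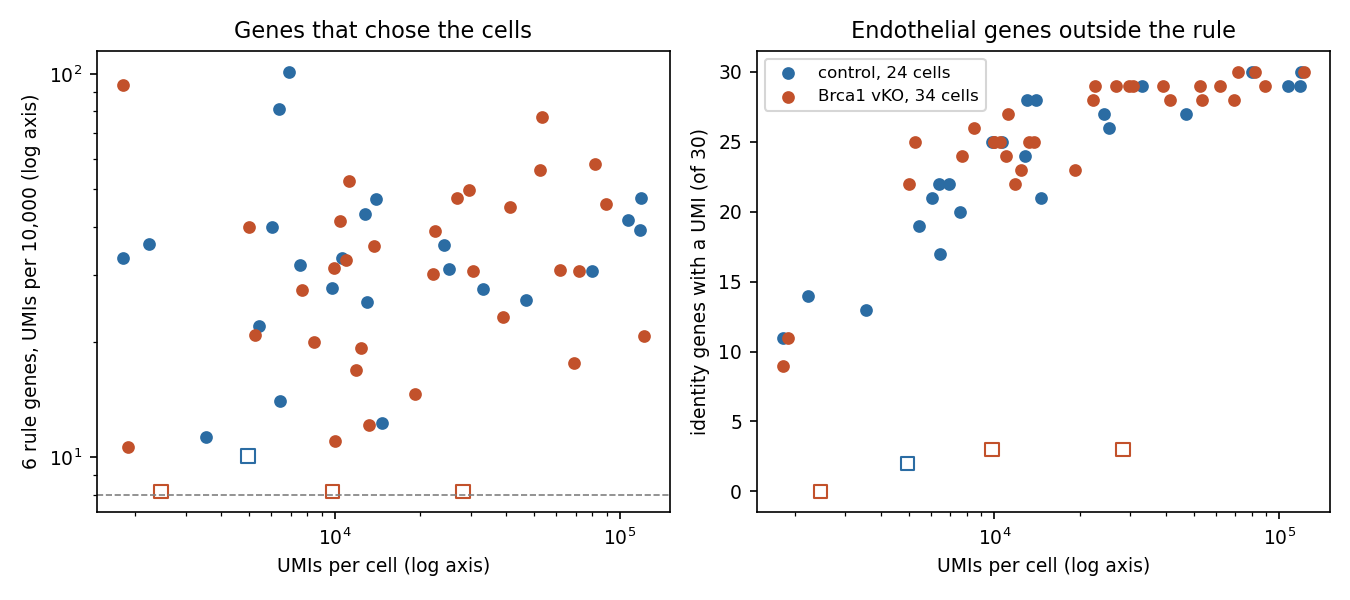
Each point is 1 member, with its UMIs on the x axis (log scale), in blue for control and orange for Brca1 vKO. The y axis shows the rule genes per 10000 UMIs on the left (log scale, dashed line at the minimum of 8) and the number of 30 other endothelial genes with a UMI on the right, and open squares mark the 4 cells with under 5 of these genes, which lie at or near the minimum.

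The label was checked with 30 endothelial identity genes outside the rule, and 54 of the 58 members had between 9 and 30 of them. The remaining 4 had 0 to 3. One is a control cell of 4959 UMIs with 5 rule gene UMIs and 2 identity genes, in which Cd74 gave 57 UMIs, Igkc 25, Cd79a 24, H2-Ab1 20 and Ms4a1 14. Another, of the Brca1 vKO library with 2454 UMIs and 2 rule gene UMIs, had none of the identity genes and gave 12 UMIs of Ly6d, 9 of Ighm, 7 of Cd79a and 6 of Cd79b. Cd79a and Cd79b encode parts of the B cell receptor, Igkc and Ighm immunoglobulin chains, and Cd74 the invariant chain of antigen presentation. The other 2 were Brca1 vKO cells of 9812 and 28189 UMIs with 3 identity genes each, in which Pecam1 gave 8 of 8 and 21 of 23 rule gene UMIs. In these 4 cells the data go against the name. Without them the ratio of the shares was 0.785 and the identity genes 4-fold higher still numbered 29, with medians of 4.42 and 4.14. Cell cycle counts, stromal sums and the counts of lists between the libraries that change without them are given with both values.

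Among all 8701 genes with at least 20 UMIs in the members, 335 were 4-fold or more higher in the members than in all other retained cells in both libraries (3.85%), and 75 were 4-fold or more lower (0.862%). This filter asks for UMIs in the members only, so genes almost absent from them were not tested. It limits the counts of lower genes, here and in the lists that follow. Of the 30 identity genes 29 were 4-fold higher, with medians of 4.41 (control) and 4.08 (Brca1 vKO) on the log2 scale of CPM + 10, against -0.10 and -0.02 over all genes. Cdh5, which encodes VE-cadherin, stood at 1011 CPM in control and 741 CPM in Brca1 vKO members, against 22.6 and 30.7 CPM in the other cells. Egfl7, a matrix protein secreted by endothelium, stood at 618 and 646 CPM (12.1 and 7.04 in the other cells), and Cd34, a sialomucin of vessels and progenitors, at 690.1 and 731 CPM (52.3 and 70.1). Cav1, the main protein of caveolae, stood at 615 and 568 CPM (23.4 and 27.0). For each of these genes the gap between members and other cells was many times larger than the gap between libraries. Plvap, which forms the diaphragms of fenestrae, was the exception at 36.8 and 5.96 CPM, with UMIs in 4 control and 5 Brca1 vKO members.

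**Figure D2:**
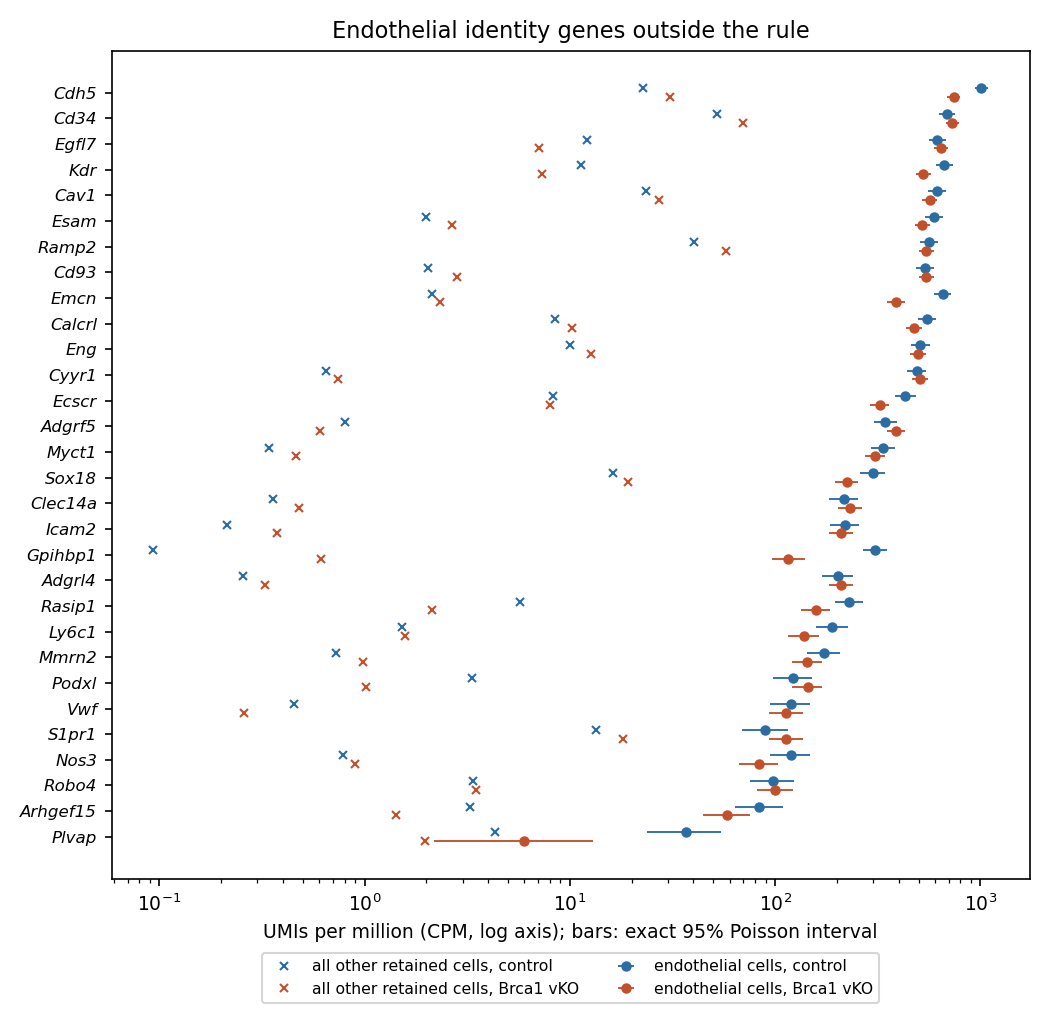
Level of each of the 30 identity genes in CPM (log axis), as the members' sum (circles, with exact 95% Poisson intervals) and as the sum of all other retained cells (crosses), in blue for control and orange for Brca1 vKO. The circles lie far to the right of the crosses except for Plvap, at 5.96 CPM in the Brca1 vKO members and 1.98 CPM in the other cells of that library.

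To compare cells of unequal depth, each was thinned to 2000 UMIs, which left out 1 control and 2 Brca1 vKO members. Cdh5 then had a UMI in 65.2% of control members (42.7% to 83.6%) and 65.6% of Brca1 vKO members (46.8% to 81.4%). In cells over the Sertoli ceiling only (Sertoli-high cells), which should lack it, the shares were 0.388% and 0.527%. Before thinning, 91.7% and 91.2% of members had a UMI, and 3.36% and 4.24% of Sertoli-high cells, whose median depths were 17675 and 15130 UMIs. Slc39a8 behaved alike, with 73.9% and 75.0% of thinned members against 0.0864% and 0.152% of Sertoli-high cells. The shares in the members stood far above those in Sertoli-high cells, and the source of the UMIs in Sertoli-high cells was not tested.

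The genes that stood highest over the other cells were ordered by the smaller of the 2 libraries' log2 ratios. The first 12 included the rule genes Flt1, Cldn5, Ptprb and Pecam1. Outside the rule, Slc39a8 led at 6.25, followed by Mecom (5.94), Ctla2a (5.73), Cyyr1 (5.55), Tm4sf1 (5.54), Cd93 (5.44), Esam (5.39) and Ccser1 (5.26). Slc39a8, on chromosome 3 from 135825279 to 135888572 of GRCm38, encodes a zinc and manganese importer. It gave 719 UMIs in 20 of 24 control members and 922 UMIs in 30 of 34 Brca1 vKO members, or 1058 and 915 CPM, while other cells had 1.95 and 2.12 CPM. Mecom, a zinc finger transcription factor, stood at 764 and 743 CPM against 2.63 and 1.46. Not all of these genes separate endothelial cells from pericytes. Tm4sf1, a surface protein of the tetraspanin type, stood at 700.4 and 707 CPM in the members and at 724 and 791 CPM in cells over the pericyte ceiling only (pericyte-high cells), and Esam at 593 and 522 CPM against 181 and 162. Slc39a8, Mecom, Cyyr1 and Ccser1 were at most 4.31 CPM there.

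Promoter windows are shown for Slc39a8, the leading gene outside the rule, and for Tm4sf1, the gene that the members shared with pericyte-high cells. Both are 300 bases around a RefSeq transcription start on GRCm38.p6, 5′ to 3′ on the gene's own strand. The Slc39a8 window is chr3:135825029-135825328 on the plus strand and the Tm4sf1 window chr3:57301939-57302238 on the minus strand. Capitals mark GGAAGT, a form of the core recognised by ETS factors, searched on both strands (as GGAAGT or ACTTCC).
Slc39a8: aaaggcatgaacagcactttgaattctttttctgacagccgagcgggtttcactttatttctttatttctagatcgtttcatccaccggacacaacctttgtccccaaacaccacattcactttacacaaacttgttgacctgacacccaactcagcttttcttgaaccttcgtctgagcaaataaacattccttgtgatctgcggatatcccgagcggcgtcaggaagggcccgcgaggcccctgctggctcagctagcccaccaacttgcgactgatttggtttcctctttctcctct
Tm4sf1: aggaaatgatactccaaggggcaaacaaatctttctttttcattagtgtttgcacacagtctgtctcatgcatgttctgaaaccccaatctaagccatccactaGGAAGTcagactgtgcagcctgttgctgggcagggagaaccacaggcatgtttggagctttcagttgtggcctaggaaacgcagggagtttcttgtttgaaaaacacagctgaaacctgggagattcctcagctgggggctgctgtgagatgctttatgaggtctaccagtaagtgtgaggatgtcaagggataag
The letters occur in the Tm4sf1 window and not in that of Slc39a8. Of the 12 leading genes 8 had a window, and 2 of their 11 windows held the motif. Of the identity genes 15 of 30 had one, and 7 of their 20 windows did (35.0%), while the share over all 32851 windows of 27025 genes was 23.8%. A match is a string of letters and says nothing of binding.

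Transcription factors known from endothelium were high in the members as a group. Of 23 such genes tested, 13 were 4-fold higher than in the other cells and none was 4-fold lower, with medians of 3.04 and 2.53. The ETS factors Fli1 (836 and 622 CPM) and Ets1 (536 and 551 CPM) and the hypoxia factor Epas1 (415 and 559 CPM) belonged to these. Tcf4, an E protein, was high in the members at 2332 and 1866 CPM but also common elsewhere at 272 and 331 CPM. Klf2, a factor induced by flow, stood at 281 and 555 CPM against 194 and 251 in the other cells, which is not 4-fold. Erg, another ETS factor, was at 486 and 360.4 CPM in the members. Its level in the other cells was 45.5 CPM in the control library and 4.42 CPM in the Brca1 vKO library, and at most 2.75 CPM in pericyte-high cells, Sertoli-high cells and the cells that passed none of the 4 gene sets (unassigned cells) of either library.

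The receptors of the VEGF family were high in the members and their ligands mostly were not. Apart from Flt1, 5 of 7 genes tested were 4-fold higher. Kdr, the main VEGF receptor, stood at 668 and 527 CPM against 11.3 and 7.34 in the other cells. Nrp1 and Nrp2, co-receptors for VEGF and semaphorins, stood at 499 and 395 CPM and at 202 and 97.3 CPM. The ligands Vegfa and Vegfb were low in the members, at 22.1 and 18.9 CPM and at 33.8 and 28.8 CPM, and near the level of the other cells. Vegfc, a ligand of FLT4, was higher in the members at 70.6 and 64.5 CPM against 1.79 and 1.58. In the angiopoietin pathway only the ligands lay outside the rule, and neither of the 2 tested was 4-fold higher in both libraries. Angpt2, which endothelium releases, gave 23.5 and 26.8 CPM, and Angpt1, an agonist of TEK made by mural cells, 30.9 and 85.4 CPM. Angpt4 had no UMI.

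Notch ligands and target genes varied. Of 13 genes tested, 4 were 4-fold higher. Dll4, the endothelial Notch ligand, stood at 147 CPM in both libraries against 0.476 and 0.660 in the other cells, with UMIs in 17 and 22 members. Hes1, a Notch target, stood at 784 and 404 CPM but also at 214 and 224 CPM in the other cells. Notch1 was at 162 and 112 CPM, and Mfng, which modifies Notch receptors, at 134 and 106 CPM. In the BMP and TGF-beta group 3 of 17 genes were 4-fold higher and 1 was 4-fold lower. Eng, a co-receptor of BMP9 signalling, stood at 509 and 498 CPM against 10.0 and 12.7. Id3 and Id1, targets of the pathway, were close to the other cells, at 437 and 611 CPM against 313 and 406, and at 260.4 and 315 CPM against 111 and 145.

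The members also carried genes of transport across the vessel wall. Of 17 transporter and barrier genes tested, 6 were 4-fold higher and none was lower. Besides Slc39a8 these included Abcb1a, an efflux pump of the blood-brain and blood-testis barriers, at 396 and 423 CPM against 0.647 and 0.499. Abcg2, another efflux pump, stood at 363 and 348 CPM (24.5 and 22.8), and Slc7a5, an importer of large neutral amino acids, at 356 and 493 CPM (77.3 and 105). Slc3a2, its partner chain, was under 4-fold at 578 and 598 CPM against 200.4 and 241. Mfsd2a, a lipid transporter known from brain endothelium, gave 20.6 and 38.7 CPM in 5 and 7 members. Junction genes were less particular. Cdh5, Esam and Gja4 were the 3 of 13 tested that were 4-fold higher, while Ctnnb1 (493 and 523 CPM against 178 and 212) and Tjp1 (400.2 and 418 CPM against 212 and 174) are used by many cells.

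Basement membrane genes were abundant, with a sum of 15764 and 15648 CPM over the 20 genes listed. Of 19 tested, 9 were 4-fold higher and none was lower. Col4a1 and Col4a2, the collagen IV chains common to most basement membranes, stood at 3090.0 and 3016 CPM and at 1817 and 1882 CPM. The members shared Col4a1 with pericyte-high cells, where it stood at 4065 and 3388 CPM, and the unassigned cells had 1014 and 967 CPM. Hspg2, which encodes perlecan, stood at 627 and 814 CPM against 44.6 and 52.6. Sparc, a matrix-binding protein, was abundant at 5212 and 4831 CPM but also in the other cells, at 1390.0 and 1748 CPM.

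Among genes of leukocyte contact 3 of 12 were 4-fold higher. Icam2, present on resting endothelium, stood at 218 and 209 CPM against 0.213 and 0.376. Among clotting genes 3 of 12 were, including Procr, the protein C receptor, at 113 and 109 CPM and Vwf at 119 and 113 CPM. Of 13 secreted ligands tested 3 were 4-fold higher, Pdgfb (147 and 215 CPM) and Tgfb1 (169 and 99.3 CPM) among them. PDGFB recruits pericytes. Kitl, the ligand of KIT on differentiating spermatogonia, stood at 499 and 364 CPM in the members and at 804 and 814 CPM in Sertoli-high cells. Gdnf, the niche factor for spermatogonial stem cells, gave no UMI in control and 2 UMIs in Brca1 vKO members, at most 1.99 CPM, against 21.2 and 35.5 CPM in the other cells. Lif, Wnt2 and Ccl24 had none. Of 6 lymphatic genes in the table, 2 had enough UMIs to be tested, and 1 of these was 4-fold higher, Flt4 at 50 and 34.7 CPM. Prox1, the factor that sets lymphatic identity, gave 14 UMIs in 5 control and 9 in 6 Brca1 vKO members, Lyve1 gave 0 and 2, Pdpn 0 and 4, and Mmrn1 none.

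**Figure D3:**
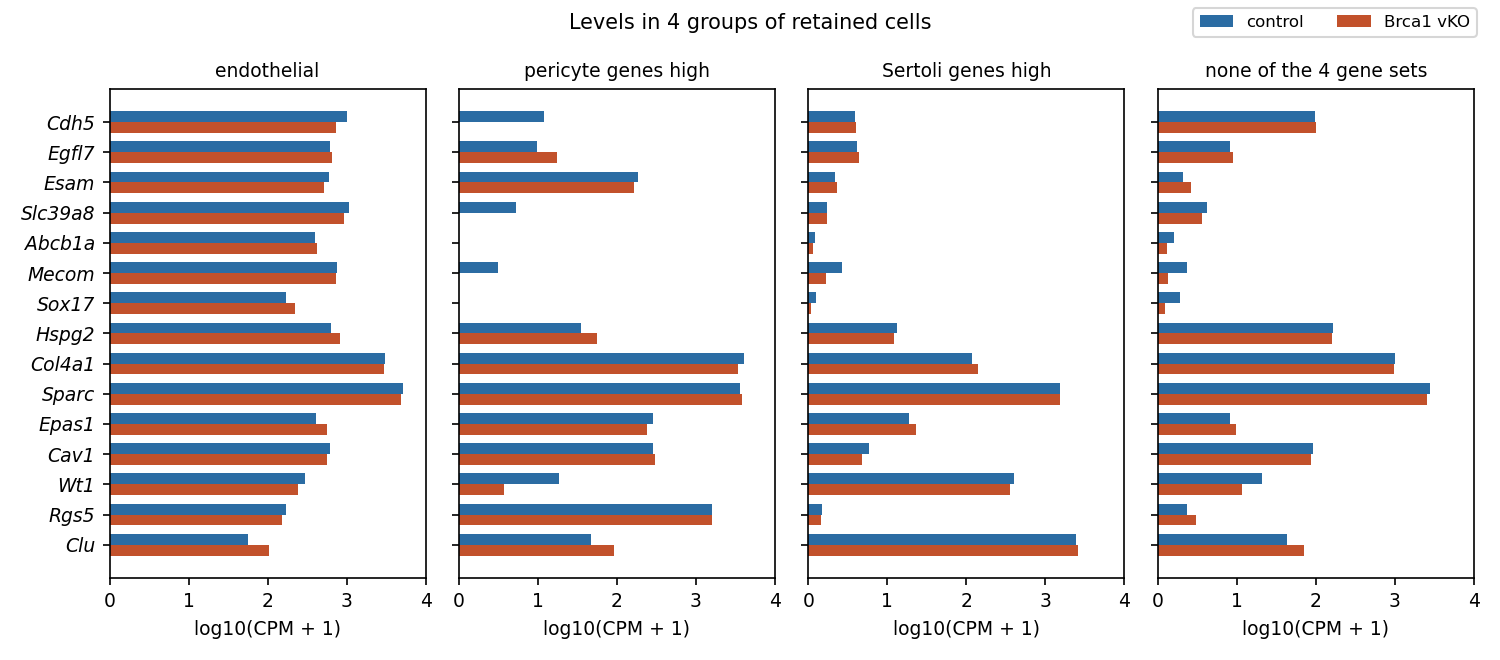
Levels of 15 genes as log10 of CPM + 1 in the summed UMIs of 4 groups of retained cells, in blue for control and orange for Brca1 vKO. Slc39a8, Abcb1a, Mecom and Sox17 are high in the endothelial members alone, whereas Col4a1 and Sparc are also high in pericyte-high cells and Wt1 also in Sertoli-high cells (400.0 and 359.8 CPM).

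Markers of other cells were then read in the members. Of 5 Sertoli genes tested 4 were 4-fold lower than in the other cells, 3 of them genes that the rule itself capped, and the list's sum was 412 and 534 CPM against 5353 and 7091. Aard, a Sertoli gene outside the rule, stood at 19.1 and 94.3 CPM in the members and at 3424 and 3528 CPM in Sertoli-high cells. Wt1, a transcription factor known for Sertoli cells, did not follow it. It gave 200 UMIs in 18 control members and 242 in 26 Brca1 vKO members, or 294 and 240.2 CPM, not far below the 400.0 and 359.8 CPM of Sertoli-high cells. Pericyte-high cells had 17.2 and 2.75 CPM and unassigned cells 19.9 and 10.6 CPM. After thinning, Wt1 had a UMI in 39.1% (19.7% to 61.5%) and 50% (31.9% to 68.1%) of members, in 44.6% and 43.5% of Sertoli-high cells and in none of 41 and 41 pericyte-high cells. Aard by the same count was in 8.70% and 15.6% of members and 98.8% and 98.7% of Sertoli-high cells. The source of the Wt1 and Aard UMIs in the members was not tested.

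Of 10 pericyte genes 2 were 4-fold higher than in the other cells, Rgs5 and Mcam, or 1 without the 3 deepest control members. Rgs5 was capped by the rule, so its level is part of the choice. Mcam is an adhesion molecule that endothelium also carries. Rgs5, a regulator of G protein signalling, stood at 168 and 150 CPM, against 1610.0 and 1579 CPM in pericyte-high cells, and came from 2 control and 9 Brca1 vKO members. In all, 2 control and 10 Brca1 vKO members had a UMI of Rgs5, Higd1b or Cox4i2, and they were deep cells, with medians of 112643 and 65558 UMIs. Other deep members had none of these genes, among them the deepest control member of 118913 UMIs, and the part of depth in this was not tested. Differences between the libraries without the members with a pericyte UMI are given below, and the source of these UMIs was not tested. Of 11 macrophage genes C1qa, C1qb, C1qc, Lyz2 and Tyrobp were at 0 in all members, and Csf1r, Adgre1, Mrc1 and Fcer1g gave 1, 1, 2 and 3 UMIs. The list as a whole had a UMI in 16 control and 21 Brca1 vKO members and summed to 281 and 78.4 CPM, against 164 and 205 CPM in the other cells. That sum came mostly from Dab2, an endocytic adaptor that many cell types carry, at 191 and 71.5 CPM, and in the control library also from Cd74, at 88.3 CPM, of whose 60 UMIs 57 lay in the cell with B cell receptor genes. The Leydig genes Cyp17a1, Cyp11a1 and Insl3 were at 0 as well. Hbb-bs, a haemoglobin gene, had a UMI in 34.8% and 9.38% of thinned members and in 29.9% and 7.90% of thinned Sertoli-high cells, which should lack it, and the source of these UMIs was not tested.

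The members were not alike among themselves, and genes of vessel zones varied between them. Among the 54 members with at least 5 identity genes, Gja4, a connexin of arteries, was detected without the apelin receptor gene Aplnr in 13 cells, and Aplnr without Gja4 in 18. Both were found in 16 cells and neither in 7. The cells with both were the deepest, with a median of 70522.5 UMIs, against 6901 for Gja4 alone, 13370.5 for Aplnr alone and 10417 for neither. These classes were formed after the values had been seen, and the sums that follow are a description. In cells with Gja4 alone, Cxcl12, a chemokine, stood at 1736 CPM against 29.6 CPM in cells with Aplnr alone, and Hey1, an arterial Notch target, at 150.1 CPM against 0 UMIs. Sema3g, a semaphorin of arteries, was at 84.8 CPM against 0 UMIs, and the dependence receptor gene Unc5b at 222 against 13.2 CPM. Vwf was at 287 against 39.5 CPM. All 8 arterial genes with at least 10 UMIs over both classes, Gja4 left out, were higher in the Gja4 class. The capillary and sprouting genes were mixed. The order was opposite for Apln, the ligand of APLNR, at 6.53 CPM against 217, for Esm1, a gene of sprouting tips, at 6.53 against 78.9, for Nrp2 at 45.7 against 184, and for Rgcc at 209 against 655. It was the same as for the arterial genes for Fabp5, a fatty acid binding protein, at 300.2 against 29.6 CPM, for Igfbp3 at 509 against 112, for Pdgfb at 359 against 204 and for Aqp1, a water channel, at 71.8 CPM against 0 UMIs. Of the 11 capillary and sprouting genes with at least 10 UMIs, Aplnr left out, 7 were higher in the Aplnr class and 4 in the Gja4 class.

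Some of these values rested on 1 cell. A Brca1 vKO cell held 53382 of the 153256 UMIs of the Gja4 class. Without it Cxcl12 was 941 CPM, Mgp 461 CPM in place of 1762, Bmx 80.1 in place of 228, and Klf2 691 in place of 1285, all still above the Aplnr class at 34.2, 190.3, 3.80 and 506 CPM without its own deepest cell. Sox17 fell to 210.3 CPM from 542, next to 194 CPM. Without these 2 cells Fabp5 (441 against 34.2 CPM) and Igfbp3 (741 against 114 CPM) kept their order, and of the 11 capillary and sprouting genes 5 were higher in the Aplnr class and 6 in the Gja4 class. Cdh5 was much the same in both classes, at 874 and 918 CPM. Across the 54 cells the summed arterial genes and the summed capillary and sprouting genes were barely related (Spearman rho -0.09, 0.14 within control and -0.34 within Brca1 vKO), a description over cells that share 2 libraries and differ in depth. The classes held 9, 8, 6 and 0 control cells and 4, 10, 10 and 7 Brca1 vKO cells in the order Gja4 alone, Aplnr alone, both and neither.

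**Figure D4:**
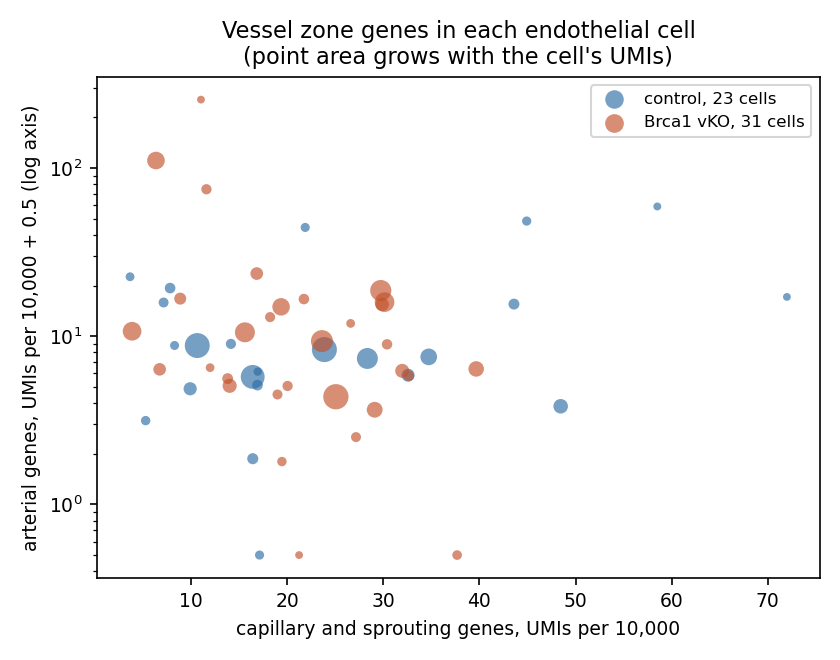
Each point is 1 of the 54 members with at least 5 identity genes, in blue for control (23) and orange for Brca1 vKO (31), with its area growing with its UMIs. The x axis gives the summed capillary and sprouting genes and the y axis (log scale, 0.5 added) the summed arterial genes per 10000 UMIs, and the 3 cells highest on the arterial axis are Brca1 vKO cells that lie low on the other axis.

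Cell cycle genes were found in part of the members. Mki67, a marker of cycling cells, had a UMI in 7 control and 13 Brca1 vKO members, and at least 5 UMIs of Mki67 and Top2a together were found in 5 and 9. After thinning, 4 of 23 and 6 of 32 had a UMI of either. A Brca1 vKO cell with 54 such UMIs was 1 of the 4 with few identity genes, and without those 4 at least 5 UMIs were found in 5 and 8 members, and any UMI after thinning in 4 of 22 and 5 of 29. Without the 3 deepest control members at least 5 UMIs were found in 2 and 9 members, and without both the cells of under 5 identity genes and those with a pericyte UMI in 3 of 21 in each library. None of the 30 cell cycle genes was 4-fold higher or lower than in the other cells, and their sum was 3796 and 4052 CPM against 5200.0 and 4288. Of 9 recombination repair genes tested and 14 p53 target genes, none and 1 were 4-fold higher. The 1 was Plk2, at 408 and 338 CPM against 18.4 and 23.

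Between the libraries, of 8701 genes, 270 were 2-fold or more higher in the Brca1 vKO sum (3.1%) and 60 were 2-fold or more lower (0.69%), with a median of 0.03 on the log2 scale. None of the 30 identity genes was 2-fold higher and 2 were 2-fold lower, Plvap and Gpihbp1, with a median of -0.12. Gpihbp1, which anchors lipoprotein lipase to capillaries, stood at 308 CPM in control and 116 CPM in Brca1 vKO members, a ratio of 0.378 (0.299 to 0.476). The Plvap value rested on 1 control cell, which held 19 of the 25 control UMIs, and without it Plvap was at 10.0 CPM in control members, or -0.33 on the log2 scale. None of the transcription factors, barrier genes, junction genes, p53 targets or repair genes tested was past 2-fold in either direction, nor was any of the 19 basement membrane genes listed, a list that does not hold Lama2, Col4a3 or Col4a4. Without the 3 deepest control members the transcription factor genes Foxc1, Gata2 and Nr2f2, the junction gene Cgnl1 and the basement membrane gene Fn1 were 2-fold higher in Brca1 vKO, where 6.60% of all genes tested were. Without both the cells of under 5 identity genes and those with a pericyte UMI the transcription factor genes Klf2 and Sox17 and the barrier gene Lsr were, against 2.62% of all genes. Of 30 cell cycle genes 1 was higher (Ccnb1), and none of 29 without the 4 cells of under 5 identity genes. With the members with a pericyte UMI left out as well, 3 of 25 were lower (Ccnb2, Cenpf and Ube2c) and none was higher. Of all genes 2.11% were lower there, and the median of the cell cycle genes went from 0.21 to -0.60. Other lists had several that were lower. Of 12 leukocyte contact genes 4 were (Icam1, Vcam1, Sele and Cd74), of 7 venous genes 3 (Flrt2, Sele and Vcam1) and of 6 capillary genes 3 (Aplnr, Gpihbp1 and Plvap), while the capillary gene Fabp5 was higher, at 1.17, a ratio of 2.32 (1.90 to 2.85). Without the 12 members that had a UMI of Rgs5, Higd1b or Cox4i2 Fabp5 turned to -2.29, with 97 UMIs in control and 13 in Brca1 vKO members. Without the 4 cells of under 5 identity genes the leukocyte contact genes that were lower numbered 3 (not Cd74) and the capillary genes 2 (not Aplnr). Without the 3 deepest control members 1 leukocyte contact gene (Cd74), 1 venous gene (Flrt2) and 2 capillary genes (Gpihbp1 and Plvap) were lower, of 10, 5 and 6 tested, the venous gene Nr2f2 was higher, and the median of the venous genes went from -0.98 to 0.11. Of 12 arterial genes 2 were higher (Cxcl12 and Mgp) and 1 was lower (Cxcr4), with a median of 0.19. Without the 4 cells of under 5 identity genes 3 were higher (also Bmx) and none was lower. Without the 3 deepest control members 2 were higher and 2 lower (Cxcr4 and Unc5b), with a median of -0.07. Without the cells of under 5 identity genes and those with a pericyte UMI the median was 0.69. There 4 of 11 were higher (Bmx, Cxcl12, Mgp and Sox17) and 2 lower (Cxcr4 and Unc5b). Over all members Cxcl12 stood at 75.0 and 380.2 CPM, a ratio of 5.07 (3.78 to 6.93), and Mgp at 97.1 and 536 CPM, a ratio of 5.52 (4.27 to 7.24). A single Brca1 vKO cell, the deepest of the Gja4 class, held 172 of 383 and 224 of 540 UMIs, and without it Cxcl12 went from 2.20 to 1.44 and Mgp from 2.35 to 1.67 on the log2 scale. Cxcr4 stood at 32.4 and 9.93 CPM, or -1.09 on the log2 scale and -0.89 without 1 control cell.

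The 6 largest differences towards Brca1 vKO were Lama2 (3.27 on the log2 scale), Col4a4 (3.13), Mt1 (3.10), Epha3 (3.05), Adamts5 (2.86) and Col4a3 (2.84). Lama2, a laminin chain, gave 14 UMIs in 4 control members and 288 UMIs in 18 Brca1 vKO members, a ratio of 13.9 (8.14 to 25.7). Unassigned cells, which pass none of the 4 gene sets, had Lama2 at 1297 and 1378 CPM, Col4a4 at 1037 and 1007, Mt1 at 865 and 1438, Adamts5 at 846 and 929.7 and Col4a3 at 428 and 404. Epha3 was highest in pericyte-high cells, at 442 and 486 CPM. Of 9 stromal genes tested 8 were 2-fold higher in the Brca1 vKO members, with a median of 1.91, and their sum was 237 and 845 CPM, against 2168 and 2704 CPM in the other cells. Without the 4 cells of under 5 identity genes 6 of 8 were higher, with a median of 1.64 and sums of 239 and 645 CPM. Of 4 myoid genes tested 3 were higher, and of 10 pericyte genes 3, or 9 without the 3 deepest control members and 5 without the 4 cells, where 6.60% and 2.63% of all genes were higher. Cox4i2, capped by the rule, was among the 3, and Rgs5 and Higd1b also among the 9. The 3 deepest control members include the only 2 control members with a UMI of these capped genes. Of 5 Sertoli genes 2 were higher (Aard and the capped Cst9), with a median of 0.77, or 3 without the 3 deepest control members (also Clu). Without the 4 cells it was 2 of 4. The capped Sertoli genes had a UMI in 62.5% of control and 91.2% of Brca1 vKO members before thinning. The rule limits the levels of these genes. The members' median depths were unequal, at 11674 and 16431 UMIs, and the part of depth in these shares was not tested. Handling stress genes, which tissue dissociation induces, summed to 9769 and 12507 CPM in the members and to 9576 and 13770 CPM in the other cells, and had medians of 41.99 and 77.10 per 10000 UMIs over the members. Of 17 tested 1 was higher (Fosb), or 6 without the 3 deepest control members (also Egr1, Fos, Nr4a1, Socs3 and Zfp36). The 1 of 17 over all members stands beside 3.1% of all genes. Without the cells of under 5 identity genes and those with a pericyte UMI, 2 of 16 stress genes were higher, with sums of 9754 and 10262 CPM. The part of stromal, myoid, pericyte, Sertoli and stress genes in the list of 270 was not tested beyond the counts that follow.

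Without the 12 members that had a pericyte UMI, Epha3 had 0 UMIs in both libraries, while Lama2 was at 4.15. With the 4 cells of under 5 identity genes left out as well, 21 members remained in each library. Of the 270 and 60 genes, 47 and 19 were then still 2-fold higher or lower, and the counts were 157 and 126 of 5981 genes tested. That is 2.62% higher and 2.11% lower, against 3.1% and 0.69% over all members. There Lama2 was at 3.18, Col4a4 at 3.56, Col4a3 at 2.97, Adamts5 at 2.13 and Mt1 at 1.68, and Epha3 had 0 UMIs. The sum of the stromal genes was 107 and 455 CPM in these members. That of the myoid genes was 26.7 and 808 CPM, against 277 and 842 CPM over all members.

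The 6 largest differences towards control were Cd74 (-3.16), Hdac9 (-2.02), Vcam1 (-2.0), Icam1 (-1.99), Thrb (-1.98) and Hbb-bs (-1.90). Without the 4 cells of under 5 identity genes Cd74 was at -0.53, while the other 5 lay between -2.17 and -1.89. Icam1, an adhesion molecule induced by inflammation, gave 406 UMIs in 12 control members and 144 UMIs in 18 Brca1 vKO members, or 597 and 143 CPM, a ratio of 0.239 (0.196 to 0.290). A single control cell held 203 of the 406 and another held 93. The cell with 203 also held 36 of 58 control UMIs of Vcam1 and 27 of 40 of Sele. It had 114 UMIs of Rgs5, Higd1b and Cox4i2. At 9.65 per 10000 it was the member highest for these capped genes. Without the 3 deepest control members Icam1 was at -0.63, Vcam1 at -0.06, Hdac9 at -0.72 and Thrb at -0.39. These differences rested on few cells of 1 mouse. Hbb-bs stood at 109 and 21.8 CPM, and differed in the same direction in the other cells, at 497 and 115 CPM.

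**Figure D5:**
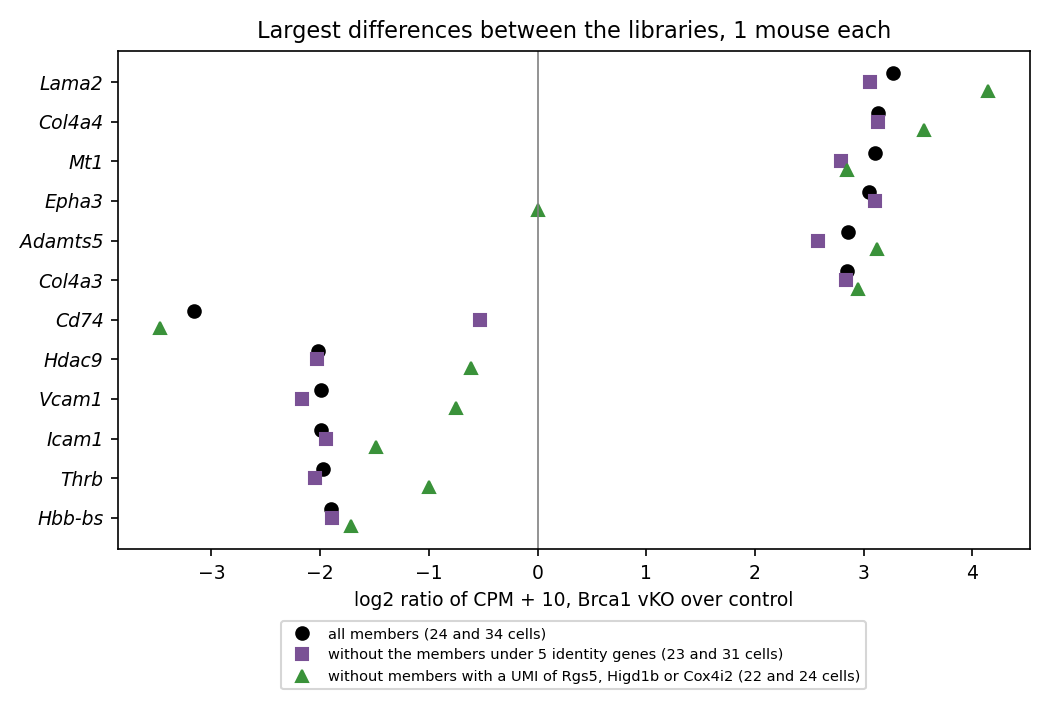
Log2 ratio of CPM + 10, Brca1 vKO over control, for the 6 genes highest and the 6 lowest by this ratio, over all members (circles, 24 and 34 cells), without the cells of under 5 identity genes (squares, 23 and 31) and without those with a pericyte UMI (triangles, 22 and 24). Epha3 goes from 3.05 to 0.00 without the cells with a pericyte UMI, and Cd74 from -3.16 to -0.53 without the cells of under 5 identity genes.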

How the data were processed

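The deposited tables hold raw counts of UMIs per gene and cell, which the authors made with Cell Ranger 6.0.2 on mm10, and the labels also name R 4.2.3 and Seurat 4.3.0.1. They had not been normalized. No cell annotation by the authors was used here. Cells with at least 750 genes and at most 10% mitochondrial UMIs were retained, as in the methods, which left 1 Brca1 vKO cell more than the study states, a difference that was not resolved. The members and gene lists were chosen with earlier results of these data known. Members' counts were summed per library, scaled to 1000000 UMIs (CPM) and compared as log2 of CPM + 10. Genes tested are those compared in this way, with 20 UMIs or more in the members of both libraries together, and no statistical test was made. Pericyte-high, Sertoli-high and germ-high cells pass that ceiling only, and unassigned cells pass none of the 4 gene sets.

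Genes named are the rule genes and Brca1, the 6 of each list with most UMIs and defining genes at 0, the 12 leading genes with at least 50 UMIs in at least 20% of the members, and the 6 highest and 6 lowest between libraries with at least 40 UMIs. Others, such as those of vessel zones, were chosen after their values were seen. Coordinates are those of a GENCODE annotation of GRCm38, and RefSeq gave the promoters.

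Shares have exact Clopper-Pearson, sums exact Poisson and ratios exact conditional intervals at 95%, covering counting error only. Doublets were called with Scrublet in scanpy 1.11.5 and removed only as an alternative. Python 3.11.15 with numpy 2.4.6, scipy 1.17.1, pandas 2.3.3 and matplotlib 3.10.9 was used. The sums and ratios were also run on simulated counts, drawn for each gene by itself. That simulation held no cells, so it says nothing of the uneven weight of single cells. Alternatives changed the rule, the ceilings, the filters, the pseudocount, the weighting of cells and the scaling.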

Additional observations from a re-analysis of the deposited data

How the results depend on the processing

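The ratio of the members' shares stayed within its interval under all alternatives run, and the identity genes 4-fold higher in both libraries numbered 28 or 29 except with a pseudocount of 50 CPM, where there were 18. The genes 2-fold apart between libraries, 330 in all, became 702 with a pseudocount of 1 CPM, 52 with 50 CPM, 208 with at least 40 UMIs and 844 with the mean of per-cell CPM. Without the 3 deepest control members, an alternative added after seeing the data, they were 594, of which 531 were higher in Brca1 vKO. Without members with a pericyte UMI, also added later, 225 were higher and 119 lower. The cause of these shifts was not tested. With no ceilings Hbb-bs turned to 1.01. Hbb-bs was the only 1 of the 12 genes named as most different between libraries to change sign. Apart from that change of sign, the values of the 12 genes left the counting interval 45 times. Within the interval, which is wide for genes of few UMIs, Epha3 still ranged from 1.48 to 4.64. Among all 330 genes, 2 lower ones turned 2-fold higher with no ceilings, 2 higher ones turned 2-fold lower with the rule on thinned cells, and without members with a pericyte UMI 1 turned each way, the higher one that turned lower being Fabp5, at -2.29. The leading genes stayed between 3.34 and 8.34. The genes with few UMIs, such as Brca1, and the 24 control cells limit what can be seen. No paired analysis was possible because each genotype has 1 library.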
